A study of Mus musculus with 17 samples.

Results

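Aminoacyl-tRNA synthetases were read on 17 arrays from a mouse mammary cell line, and 34 genes of this family could be followed among 19938 genes tested. They were chosen by name alone: symbols made of an amino acid letter followed by ars, with or without a final 1 or 2, plus Eprs, Farsa and Farsb, with the brightest probe set standing for each gene. The 18 symbols without a final 2 were taken as cytosolic forms and the 16 ending in 2 as mitochondrial forms. Gars and Kars are counted as cytosolic, although their products also serve mitochondria. The alanine enzyme of the cytosol, Aars, shares its probe set with another gene, Exosc6, and was left out, and the aspartate enzymes were not analysed here.

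All cells were 3134 mouse mammary epithelial cells (3134Tet) with a stably integrated transactivator that tetracycline keeps off. Stocks were held in 5 µg/ml tetracycline, then plated in medium with charcoal-dextran-treated serum. There, 48 h without the drug gave the induced state and 48 h with it the repressed state. The control line expressed on induction the transactivator alone (2 arrays labelled repressed, 3 labelled induced). Each of the other lines also switched on a Flag-tagged dominant-negative remodeler, dnBrg1, dnChd4 or dnSnf2h, with 2 repressed and 2 induced arrays per line. Every induced group therefore carried the transactivator as well as any dominant-negative protein. The labels name 1 line per construct and do not say whether it is a single clone or whether replicates were separate cultures, so the p-values reflect the spread of these arrays alone, and that spread may be technical.

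Aminoacyl-tRNA synthetases join each amino acid to its tRNA, the step that supplies the ribosome with charged tRNA. Most cells keep a cytosolic set, several members of which sit in a large multi-synthetase complex, and a separate mitochondrial set encoded in the nucleus. The transcription factor ATF4, made when amino acids run short or other stresses phosphorylate eIF2alpha, is known to raise transcription of many cytosolic synthetase genes, commonly through C/EBP-ATF response elements.

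Some of these genes carry the core of such an element, written here as TGATGNAA, in the 300 bases around their start. RefSeq promoter windows (build GRCm38.p6, 250 bases before to 50 after the start, read along the gene) were matched by symbol for 11 of the 18 cytosolic and 14 of the 16 mitochondrial genes. The core stood on either strand in the windows of 4 cytosolic genes (Gars, Iars, Tars and Yars, 36.4%). It stood in 0 of the 15 mitochondrial windows, against 3.97% of all 32851 windows. Among 15 windows, 0 is near that share. The windows of Gars and Tars, both among the members with the largest changes, are shown with the core in capitals. Gars encodes the glycine enzyme (chr6:55037751-55038050, plus strand) and Tars the threonine enzyme (chr15:11399609-11399908, minus strand). On both the core lies on the strand opposite to the gene, with its leftmost base at position -30 from the start in Gars and -15 in Tars. A match is only a match of letters, not a mapped binding site.
Gars: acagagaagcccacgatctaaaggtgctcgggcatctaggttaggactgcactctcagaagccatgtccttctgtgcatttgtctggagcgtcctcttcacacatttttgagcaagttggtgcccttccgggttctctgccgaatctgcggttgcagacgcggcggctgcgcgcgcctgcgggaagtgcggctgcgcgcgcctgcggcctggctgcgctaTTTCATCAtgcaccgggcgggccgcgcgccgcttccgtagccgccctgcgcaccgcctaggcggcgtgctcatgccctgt
Tars: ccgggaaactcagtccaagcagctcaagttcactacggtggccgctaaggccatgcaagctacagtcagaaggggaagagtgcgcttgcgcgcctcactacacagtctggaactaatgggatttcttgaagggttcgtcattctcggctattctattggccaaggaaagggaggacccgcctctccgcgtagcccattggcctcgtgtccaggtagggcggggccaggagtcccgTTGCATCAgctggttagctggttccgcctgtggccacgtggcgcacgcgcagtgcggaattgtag

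Before the members are described, the arrays and cells need a short account. In the dnChd4 line Chd4 read 10.35 to 10.56 repressed and 12.27 induced (log2 signal, lowest to highest array), whereas Smarca4 (Brg1) read 9.46 to 9.66 and 9.61 to 9.73 in the dnBrg1 line and Smarca5 (Snf2h) 9.69 to 9.81 and 9.43 to 9.59 in the dnSnf2h line. Whether those probe sets can see the transgenes is unknown here, and this check bears only on the dnChd4 labels. Among the control arrays, the library labelled repressed replicate 1 correlated best with the library labelled induced replicate 2 (r = 0.995 over all genes), and the library labelled repressed replicate 2 with the library labelled induced replicate 1 (r = 0.994). These control libraries go against their labels, so the dominant-negative lines were fitted on their own 12 arrays, and counts and medians on control induction are given as labelled (17 arrays) and without the libraries labelled repressed 1 and induced 1 (15 arrays), which were picked because of their profiles. Both dnSnf2h repressed arrays correlated best with dnChd4 repressed replicate 1, and dnSnf2h induced replicate 2 with dnChd4 induced replicate 2. Of the markers for the labelled tissue, Epcam read 3.94 to 4.32, Cdh1 5.04 to 5.48 and Krt8 5.81 to 6.62, and Epcam lay below the level under which the dimmest 30% of genes fell (4.77). The mesenchymal genes Vim and Fn1 read 12.29 to 13.16 and 10.76 to 12.41. Col1a2 was as bright as these, at 10.90 to 12.65. The remaining mesenchymal markers were dimmer, with Pdgfrb at 7.66 to 9.56 and Pdgfra at 6.90 to 8.85. Thy1 read 5.74 to 6.46, Col3a1 6.35 to 7.38 and Col1a1 6.51 to 7.77.

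Cytosolic synthetase genes were lower after induction in all 3 dominant-negative lines, and the mitochondrial set moved less. By limma with Benjamini-Hochberg adjustment over all genes, 13 of 18 cytosolic genes fell on dnChd4 induction, 13 on dnSnf2h induction and 6 on dnBrg1 induction, with 0 rising in any line. The mitochondrial genes that fell numbered 3, 4 and 2 of 16 in the same order, again with 0 rising. Across all genes tested, 6.82% were called lower and 11.2% higher on dnChd4 induction, and 8.34% and 9.2% on dnSnf2h induction. For dnBrg1 induction these shares were 6.22% and 8.01%. Among 16 or 18 genes, 0 higher calls is not far below the shares called higher. The median change of the cytosolic set was -0.51 in dnChd4, -0.58 in dnSnf2h and -0.25 in dnBrg1 (log2, induced minus repressed), and that of the mitochondrial set -0.15, -0.26 and -0.11, beside all-gene medians of -0.027, -0.0087 and -0.035. Fitted with the control arrays as labelled (17 arrays), 0 of the 34 genes passed in any of these lines, where 0.16% of all genes were called lower and 0.181% higher for dnBrg1, 0.00502% and 0.0903% for dnChd4, and 0.00502% and 0% for dnSnf2h. At an unadjusted p under 0.05, that 17-array fit still held 2126, 2258 and 2443 genes for dnBrg1, dnChd4 and dnSnf2h. In the 15-array fit the cytosolic and mitochondrial genes called lower numbered 7 and 3 for dnBrg1, 13 and 3 for dnChd4, and 13 and 5 for dnSnf2h (6.54%, 7.15% and 8.67% of all genes), and 0 were called higher (8.39%, 11.6% and 9.68% of all genes). The mitochondrial calls were the less firm ones: the 2 in dnBrg1 became 0 with median centring, with all probe sets, or without dnBrg1 induced replicate 1 or induced replicate 2, and 1 without either repressed replicate, and the 4 in dnSnf2h became 8 without dnSnf2h repressed replicate 1. In bulk RNA of this kind, fewer cells of a type and less RNA per cell cannot be told apart.

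**Figure D1:**
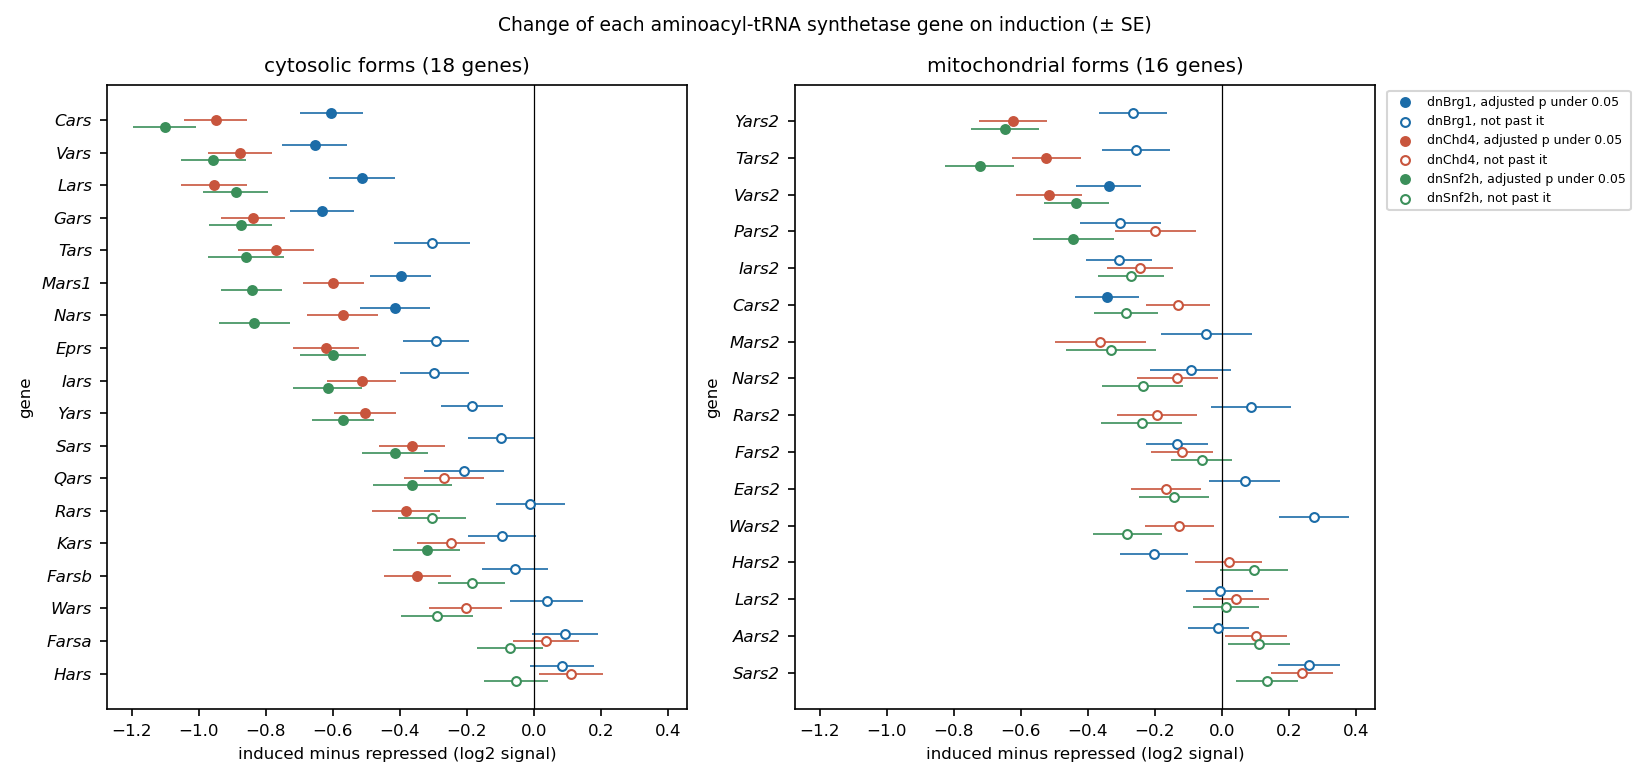
Change of each of the 34 synthetase genes on induction (horizontal axis, induced minus repressed log2 signal, bars ± SE of the 12-array limma fit; genes on the vertical axis, ordered by mean change), cytosolic forms left and mitochondrial forms right. Filled points passed an adjusted p of 0.05: 6 members passed in all 3 lines on the left and 1, Vars2, on the right, all below 0.

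Signal differed between the classes before any comparison. Mean log2 signal ran from 8.46 (Farsa) to 11.32 (Nars) over the cytosolic genes, with a median of 9.82, and from 5.82 (Pars2) to 8.71 (Iars2) over the mitochondrial genes, with a median of 7.26. Probe sets differ in brightness, so these are array signals and not an order of transcript amounts. Among all genes in the cytosolic signal range, 11.6% were called lower for dnBrg1, 14.2% for dnChd4 and 17.3% for dnSnf2h, with median changes of 0.06, 0.06 and 0.01. In the mitochondrial signal range the shares were 10.2%, 11.3% and 13.2%. Brightness thus moved with the share called, and the cytosolic counts stood above the share at their own brightness in each line. The mitochondrial count in dnBrg1, 2 of 16, was near its share. The counts of 3 in dnChd4 and 4 in dnSnf2h were not far above theirs. The difference between the classes was not itself tested.

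Cars, Vars, Lars, Gars, Mars1 and Nars passed in all 3 dominant-negative lines, and Cars, the cysteine enzyme, had the largest mean change. Cars read 10.08 and 10.07 repressed against 9.52 and 9.42 induced in dnBrg1, 10.29 and 10.35 against 9.37 and 9.38 in dnChd4, and 10.18 and 10.20 against 8.996 and 9.19 in dnSnf2h (log2 signal, replicates 1 and 2). Every induced array lay below every repressed array of its line, and repressed arrays of the same line differed by little. The induced minus repressed change of Cars was -0.60, -0.95 and -1.10 (SE 0.0939 each), or 1.52-, 1.93- and 2.15-fold lower, with limma adjusted p of 0.000554, 8.39e-06 and 3.26e-06. In the control line the arrays labelled repressed read 8.99 and 10.67 and those labelled induced 10.64, 9.37 and 9.34. The control groups overlapped across almost their whole range, with a high and a low array under each label.

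Vars, the valine enzyme, read 9.60 and 9.55 repressed against 8.94 and 8.91 induced in dnBrg1, 9.83 and 10.02 against 9.01 and 9.09 in dnChd4, and 9.87 and 9.84 against 8.83 and 8.96 in dnSnf2h. Its control arrays read 8.74 and 10.02 under the repressed label and 10.05, 8.86 and 8.78 under the induced label. The dominant-negative groups did not overlap, and the changes were -0.65, -0.88 and -0.96 (SE 0.096; limma adjusted p 0.000368, 2.08e-05 and 1.31e-05). Lars charges leucine tRNA and its product also takes part in sensing leucine for mTORC1. For Lars the repressed and induced arrays were 9.59 and 9.40 against 9.04 and 8.92 in dnBrg1, 10.44 and 10.55 against 9.51 and 9.57 in dnChd4, and 10.18 and 10.21 against 9.27 and 9.34 in dnSnf2h. Control arrays gave 9.23 and 10.37 labelled repressed, and 10.45, 9.37 and 9.29 labelled induced. The repressed dnBrg1 arrays already lay near the induced arrays of the other dominant-negative lines, and Lars changed by -0.51 there against -0.95 and -0.89 (SE 0.0978; limma adjusted p 0.00245, 1.19e-05 and 2.81e-05).

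Gars, whose window is printed above, read 9.99 and 9.91 against 9.35 and 9.29 in dnBrg1, 10.28 and 10.48 against 9.53 and 9.55 in dnChd4, and 10.24 and 10.32 against 9.43 and 9.38 in dnSnf2h, repressed first. The control arrays of Gars were 9.62 and 10.62 labelled repressed and 10.92, 9.48 and 9.57 labelled induced. Induced arrays were the lower ones in each dominant-negative line, with changes of -0.63, -0.84 and -0.87 (SE 0.0951; limma adjusted p 0.000445, 2.76e-05 and 2.6e-05). Mars1 makes the methionine enzyme, which also charges the initiator tRNA. Mars1 stood at 10.24 and 10.26 repressed and 9.88 and 9.83 induced in dnBrg1, at 10.09 and 10.27 against 9.58 and 9.59 in dnChd4, and at 10.25 and 10.23 against 9.38 and 9.41 in dnSnf2h. With 9.11 and 10.43 under the repressed label and 10.36, 9.44 and 9.49 under the induced label, its control groups overlapped. The 3 lines started from like levels of Mars1 and ended apart, with changes of -0.40, -0.60 and -0.84 (SE 0.0909; limma adjusted p 0.00827, 0.000306 and 2.5e-05).

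Nars, the asparagine enzyme, read 11.15 and 10.95 against 10.67 and 10.60 in dnBrg1, 11.75 and 11.89 against 11.18 and 11.32 in dnChd4, and 11.71 and 11.88 against 10.93 and 10.99 in dnSnf2h. Its control arrays read 11.02 and 11.88 labelled repressed and 11.95, 11.19 and 11.32 labelled induced. The dnBrg1 line was lower than the other dominant-negative lines in both states, and the changes were -0.41, -0.57 and -0.83 (SE 0.105; limma adjusted p 0.0153, 0.00137 and 8.57e-05).

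Tars, Eprs, Iars, Yars and Sars passed in dnChd4 and dnSnf2h but not in dnBrg1. Tars, the second gene with a printed window, read 9.56 and 9.33 against 9.21 and 9.08 in dnBrg1, 9.74 and 9.88 against 8.97 and 9.12 in dnChd4, and 9.60 and 9.79 against 8.76 and 8.90 in dnSnf2h. Under the control labels Tars read 8.75 and 9.80 repressed and 9.82, 8.96 and 8.96 induced. All 3 dominant-negative lines kept their induced arrays below the repressed ones, with changes of -0.30 (limma adjusted p 0.0981), -0.77 (0.000248) and -0.86 (0.000117; SE 0.114). Eprs makes the bifunctional glutamate and proline enzyme of the complex. Eprs read 10.92 and 10.78 against 10.57 and 10.54 in dnBrg1, 11.15 and 11.18 against 10.52 and 10.57 in dnChd4, and 10.97 and 11.17 against 10.42 and 10.53 in dnSnf2h. Its control arrays were 10.44 and 11.004 labelled repressed and 11.12, 10.46 and 10.44 labelled induced. The induced arrays of the 3 lines ended close together, and the changes were -0.29 (limma adjusted p 0.0623), -0.62 (0.000426) and -0.60 (0.000608; SE 0.098).

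**Figure D2:**
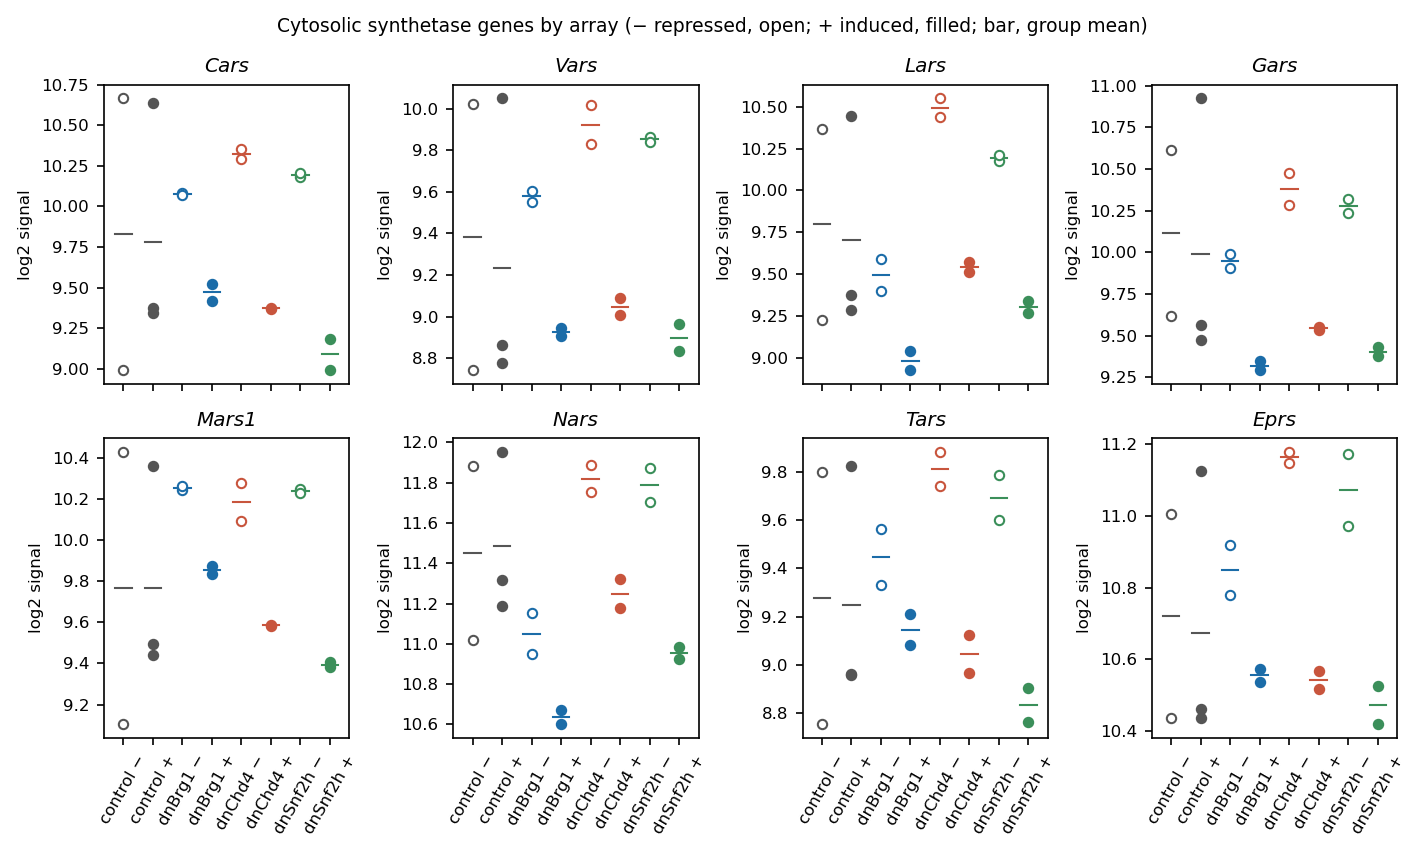
Log2 signal (vertical axis, own range per panel) of the 8 cytosolic synthetase genes shown in full, by array and group (horizontal axis), open points repressed, filled points induced, bars group means. In Cars and the other panels each dominant-negative line falls from open to filled, whereas the control groups hold high and low arrays under both labels.

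The other cytosolic members moved less or in fewer lines. Iars (isoleucine) changed by -0.30, -0.51 and -0.61 in dnBrg1, dnChd4 and dnSnf2h, and a second, dimmer Iars probe set by -0.24, -0.59 and -0.52. Yars (tyrosine) changed by -0.18, -0.50 and -0.57, and Sars (serine) by -0.10, -0.36 and -0.41. Qars (glutamine, -0.21, -0.27 and -0.36) and Kars (lysine, -0.09, -0.25 and -0.32) passed only in dnSnf2h, with limma adjusted p of 0.0479 and 0.0406, close to the threshold. Rars (arginine, -0.01, -0.38 and -0.30) and Farsb, the beta subunit of the phenylalanine enzyme (-0.06, -0.35 and -0.19), passed only in dnChd4 (limma adjusted p 0.0158 and 0.0233). Farsa, the alpha subunit of that enzyme, gave 0.09, 0.04 and -0.07, Hars (histidine) 0.08, 0.11 and -0.05, and Wars (tryptophan) 0.04, -0.20 and -0.29. None of these last 3 genes passed in any line, and the sign of Farsb in dnBrg1, of Wars in dnBrg1 and of Farsa in dnChd4 turned under some settings or with an array left out.

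All induced arrays lay below all repressed arrays for 13, 16 and 17 of the 18 cytosolic genes in dnBrg1, dnChd4 and dnSnf2h, and for 8, 12 and 8 of the 16 mitochondrial genes. The same held for 29.9%, 32.9% and 24.1% of all genes. Members of the multi-synthetase complex (Eprs, Iars, Kars, Lars, Mars1, Qars and Rars) and the 11 other cytosolic genes gave like medians, -0.29 and -0.18 in dnBrg1, -0.51 and -0.50 in dnChd4, and -0.60 and -0.57 in dnSnf2h. Of the 7 complex members 2, 5 and 6 passed, and of the 11 others 4, 8 and 7. By catalytic fold, the 9 class I enzymes had medians of -0.30, -0.51 and -0.61, and the 8 class II enzymes -0.10, -0.36 and -0.37. Both groupings are textbook ones applied after the values were known, and their differences were not tested.

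Among the mitochondrial forms, Vars2, the valine enzyme, passed in all 3 lines. Vars2 read 7.53 and 7.66 repressed against 7.27 and 7.25 induced in dnBrg1, 7.45 and 7.61 against 7.03 and 7.004 in dnChd4, and 7.50 and 7.40 against 7.09 and 6.95 in dnSnf2h. Its control arrays read 7.26 and 7.68 labelled repressed and 7.52, 7.31 and 7.29 labelled induced. The dominant-negative groups did not overlap and the changes were -0.34, -0.52 and -0.43 (SE 0.0976; limma adjusted p 0.0308, 0.00162 and 0.00575). Yars2 and Tars2, the tyrosine and threonine enzymes, passed in dnChd4 and dnSnf2h. Yars2 read 8.12 and 7.96 against 7.79 and 7.76 in dnBrg1, 7.93 and 8.13 against 7.34 and 7.47 in dnChd4, and 7.87 and 7.95 against 7.25 and 7.28 in dnSnf2h. The control arrays of Yars2 were 7.54 and 8.53 labelled repressed and 8.15, 7.56 and 7.59 labelled induced. Its induced arrays in dnBrg1 stayed above those of the other dominant-negative lines, and the changes were -0.27 (limma adjusted p 0.104), -0.62 (0.000529) and -0.65 (0.000426; SE 0.101).

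Tars2 read 8.004 and 8.05 against 7.82 and 7.72 in dnBrg1, 8.69 and 8.83 against 8.22 and 8.25 in dnChd4, and 8.71 and 8.97 against 8.13 and 8.10 in dnSnf2h. Tars2 in the control arrays was 8.02 and 8.62 labelled repressed and 8.68, 8.15 and 8.15 labelled induced. The dnBrg1 arrays sat below those of the other dominant-negative lines, and even its repressed arrays were lower than the induced arrays of those lines, and the changes were -0.26 (limma adjusted p 0.124), -0.52 (0.00206) and -0.72 (0.000205; SE 0.103). Cars2, the cysteine enzyme, passed only in dnBrg1, at 6.76 and 6.81 against 6.43 and 6.45, a change of -0.34 (SE 0.0954; limma adjusted p 0.0244). Cars2 read 6.60 and 6.62 against 6.44 and 6.52 in dnChd4 and 6.75 and 6.80 against 6.38 and 6.60 in dnSnf2h, and its control arrays 6.60 and 6.66 labelled repressed and 6.72, 6.71 and 6.68 labelled induced. Its changes in the other lines, -0.13 and -0.29, had the same sign. Pars2, the proline enzyme and the dimmest member, passed only in dnSnf2h, at 5.91 and 6.14 against 5.46 and 5.71 (change -0.44, SE 0.121, limma adjusted p 0.0189). Pars2 read 6.07 and 5.94 against 5.84 and 5.56 in dnBrg1, 5.93 and 5.86 against 5.75 and 5.66 in dnChd4, and in the control line 5.72 and 6.01 labelled repressed and 5.91, 5.66 and 5.84 labelled induced. Within each dominant-negative line its groups did not overlap, with changes of -0.30 in dnBrg1 and -0.20 in dnChd4.

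**Figure D3:**
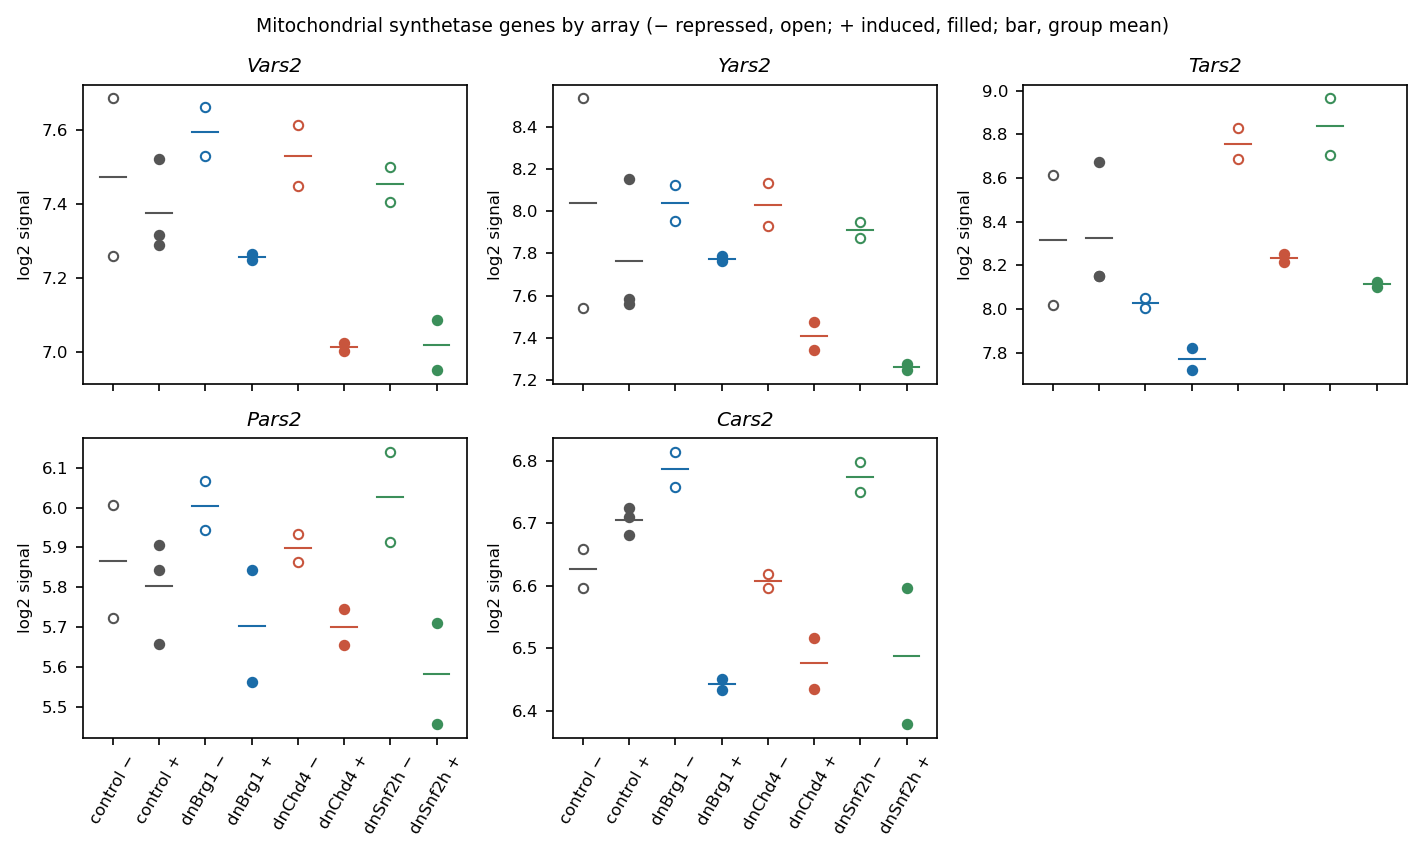
Log2 signal (vertical axis, own range per panel) by array and group (horizontal axis) of the 5 mitochondrial synthetase genes that passed in at least 1 dominant-negative line, open points repressed, filled points induced, bars group means. Filled points sit below open ones in each dominant-negative line, and Tars2 is low throughout the dnBrg1 line.

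The 11 remaining mitochondrial members (Aars2, Ears2, Fars2, Hars2, Iars2, Lars2, Mars2, Nars2, Rars2, Sars2 and Wars2) passed in none of the 3 lines. Iars2, the isoleucine enzyme, came nearest, with -0.31, -0.25 and -0.27 in dnBrg1, dnChd4 and dnSnf2h (limma adjusted p 0.0507, 0.11 and 0.0737). Sars2, the serine enzyme, had induced arrays above repressed ones in every dominant-negative line, with changes of 0.26, 0.24 and 0.13 that did not pass (limma adjusted p 0.0796, 0.0963 and 0.388). Lars2, the leucine enzyme, gave -0.01, 0.04 and 0.01, and Wars2, the tryptophan enzyme, 0.28, -0.13 and -0.28.

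For 12 amino acids each compartment had a measured enzyme made from 1 gene and serving that amino acid alone. The cytosolic change lay below the mitochondrial one in 9 pairs in dnBrg1, 10 in dnChd4 and 11 in dnSnf2h, with median differences of -0.25, -0.26 and -0.43. In the control line it did so in 9 pairs as labelled, with a median difference of -0.06, and in 11 in the 15-array fit, with a median of -0.53. Leucine was the most unequal pair in all 3 dominant-negative lines, Lars lying below Lars2 by -0.51, -0.99 and -0.90. The cysteine pair differed by -0.26, -0.82 and -0.81 and the serine pair by -0.36, -0.60 and -0.55. Tyrosine ran the other way, the change of Yars2 lying below that of Yars (differences of 0.08, 0.12 and 0.08), as did histidine in dnBrg1 (0.29) and dnChd4 (0.09) and isoleucine in dnBrg1 (0.01). The threonine forms differed by -0.05, -0.24 and -0.14, and the tryptophan forms by -0.24, -0.08 and -0.01. Phenylalanine, whose cytosolic enzyme is made of the Farsa and Farsb subunits, is not among these pairs, and its mitochondrial enzyme Fars2 changed by -0.13, -0.12 and -0.06 beside the subunit values given above. Glutamate and proline, which share Eprs in the cytosol, were left out too. Ears2 changed by 0.07, -0.17 and -0.14 and Pars2 by -0.30, -0.20 and -0.44, beside -0.29, -0.62 and -0.60 for Eprs. The pair values are differences between probe sets of the same fit and were not tested pair by pair.

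Across the 8 groups, the class mean per array (each gene taken relative to its own mean over all 17 arrays) moved more in the cytosolic than in the mitochondrial set. Cytosolic means were 0.01 and -0.10 repressed and -0.27 and -0.32 induced in dnBrg1, 0.31 and 0.43 against -0.15 and -0.10 in dnChd4, and 0.23 and 0.34 against -0.33 and -0.22 in dnSnf2h. The induced dnChd4 arrays lay above the other induced dominant-negative arrays, and the repressed dnBrg1 arrays were the lowest of the repressed dominant-negative arrays. Mitochondrial means stayed between -0.14 and 0.17 over all 17 arrays. In the control line the cytosolic mean was -0.35 and 0.43 in the libraries labelled repressed 1 and 2, and 0.43, -0.17 and -0.18 in those labelled induced 1, 2 and 3.

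**Figure D4:**
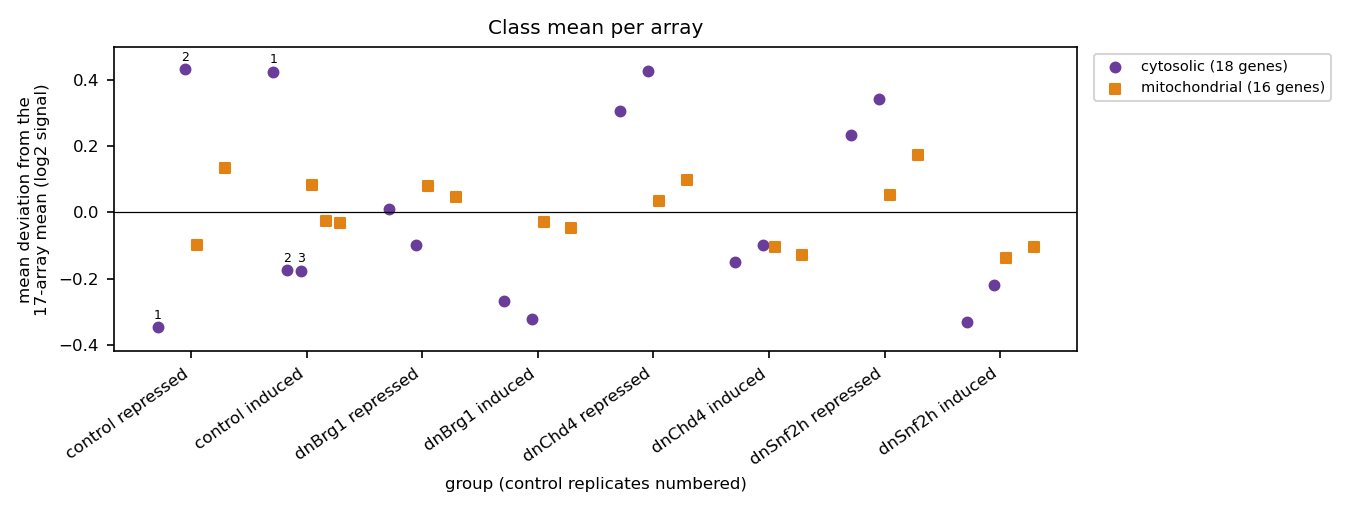
Mean over the 18 cytosolic genes (circles) and the 16 mitochondrial genes (squares) of each gene's log2 signal minus its mean over all 17 arrays (vertical axis), for every array by group (horizontal axis), with control replicates numbered. Cytosolic means fall from repressed to induced in each dominant-negative line, and the control libraries numbered repressed 1 and induced 1 lie at -0.35 and 0.43, opposite to the other arrays under their labels.

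The control line asks what the transactivator and the drug change do without a dominant-negative protein, and its answer rested on which libraries were kept. With labels as given, 0 of 34 members passed on control induction (17-array limma fit), with medians of -0.013 (cytosolic) and -0.00018 (mitochondrial). That fit called 0% of all genes in either direction and held 845 genes at an unadjusted p under 0.05. All 18 cytosolic and 11 of 16 mitochondrial genes had overlapping groups. In 1 mitochondrial gene every induced array lay below every repressed one, as in 7.73% of all genes. In 4 mitochondrial genes every induced array lay above, and the share of all genes that did so was not counted. Without the libraries labelled repressed 1 and induced 1, which leaves a lone repressed array assumed to vary like the other groups, 12 cytosolic and 5 mitochondrial genes were lower and 0 higher (11.2% and 15.4% of all genes), with medians of -0.60 and -0.13. Cars then changed by -1.31 and Vars by -1.20. Those libraries were picked by their profiles over all genes, the members included. The direction after their removal was thus partly set by that choice. Within the repressed label, replicate 1 lay below replicate 2 in all 18 cytosolic genes (median -0.77, range -1.67 to -0.04) and in 12 of 16 mitochondrial genes (median -0.18). Within the induced label, replicate 1 lay above replicate 2 in 14 of 18 cytosolic genes (median 0.68), and replicates 2 and 3 differed by a median of 0.01.

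Set against control induction as labelled, the dominant-negative changes were lower by cytosolic medians of -0.22 (dnBrg1), -0.48 (dnChd4) and -0.54 (dnSnf2h), and 0 members passed (17-array limma fit; 1131, 771 and 1121 genes at an unadjusted p under 0.05). Of all genes, that fit called 0.0351% lower and 0.0552% higher for dnBrg1, 0.00502% and 0.0351% for dnChd4, and 0% in both directions for dnSnf2h. Without the doubted libraries these medians turned to 0.37, 0.07 and 0.04. The mitochondrial medians were -0.096, -0.17 and -0.28 as labelled and -0.037, -0.065 and -0.14 without those libraries. In that 15-array fit Cars, Lars, Mars1, Vars, Wars and Yars of the cytosolic set and Ears2 and Yars2 of the mitochondrial set had higher changes (induced minus repressed) on dnBrg1 induction than on control induction (4.02% of all genes were called lower and 2.93% higher). For dnChd4 (0.311% and 0.507% of all genes, 2572 at an unadjusted p under 0.05) and dnSnf2h (1.39% and 0.682%, 3364 genes) 0 members passed. The difference from transactivator induction alone thus had opposite signs in the 2 fits for the cytosolic medians and the same sign for the mitochondrial medians. All these comparisons share the same control arrays.

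Between dominant-negative inductions, 0 of 34 members passed in any of the 3 comparisons by limma on 12 arrays, where 0.993% and 0.281% of all genes were called lower and higher for dnBrg1 minus dnChd4, 0.341% and 0.291% for dnBrg1 minus dnSnf2h, and 0.00502% and 0.125% for dnChd4 minus dnSnf2h. At an unadjusted p under 0.05 those comparisons held 1958, 2001 and 1482 genes. Cytosolic changes were smaller in size in dnBrg1, by medians of 0.23 against dnChd4 and 0.31 against dnSnf2h, and dnChd4 and dnSnf2h differed by 0.08. The members nearest to the threshold were Lars for dnBrg1 minus dnChd4 (0.44, SE 0.138, limma adjusted p 0.197) and Wars2 (0.56, SE 0.146, limma adjusted p 0.134) and Cars (0.50, SE 0.133, limma adjusted p 0.143) for dnBrg1 minus dnSnf2h. A larger count of calls in dnChd4 or dnSnf2h than in dnBrg1 is thus not a tested difference.

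The lines already differed while repressed. Cytosolic synthetase genes were lower in repressed dnBrg1 cells than in repressed dnChd4 cells for 13 of 18 members (12-array limma fit, 6.35% of all genes lower and 8.07% higher), with a median of -0.37 and 0 members higher. The differences were -1.001 in Lars (limma adjusted p 8.42e-06), -0.77 in Nars (0.000182), -0.62 in Sars (0.000639), -0.52 in Farsa (0.00206) and -0.53 in Kars (0.00221). Farsa, Hars and Kars, which passed in few inductions or none, were thus among the members that differed between lines. Of the mitochondrial genes Tars2 (-0.73, limma adjusted p 0.000223) and Wars2 (-0.34, 0.0413) were lower and Lars2 (0.31, 0.0451) higher. Repressed dnBrg1 cells were also below repressed dnSnf2h cells for 8 cytosolic genes (6.72% of all genes lower and 7.61% higher), among them Nars (-0.74), Lars (-0.70) and Farsa (-0.58), and for Tars2 (-0.81) and Wars2 (-0.58). Repressed dnChd4 and dnSnf2h cells differed in 0 members (0.01% and 0.00502% of all genes, 1579 genes at an unadjusted p under 0.05). The 17-array fit kept 3 cytosolic calls in each dnBrg1 comparison, with 0 mitochondrial calls against dnChd4 (1.83% of all genes lower, 2.2% higher) and 2 against dnSnf2h (1.83% and 2.06%). Without dnBrg1 repressed replicate 2 the dnChd4 comparison held 6 cytosolic calls, and without dnChd4 repressed replicate 2 it held 4.

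Genes around the synthetases were followed as lists. Beside the counts of these and later lists, 6.22%, 6.82% and 8.34% of all genes were called lower in dnBrg1, dnChd4 and dnSnf2h. The shares called higher were 8.01%, 11.2% and 9.2%. The shares of all genes on control induction are those given above for each fit. Of the scaffolds of the multi-synthetase complex, 0, 2 and 1 of 3 fell in dnBrg1, dnChd4 and dnSnf2h: Aimp1 (-0.33) and Eef1e1 (-0.41) in dnChd4, and Aimp2 (-0.49) in dnSnf2h. Aarsd1, an alanyl-tRNA editing protein, changed by -0.45, -0.58 and -0.60 and was the only gene of 5 on the editing and synthetase-like list to pass. In tRNA maturation and export 1, 4 and 4 of 10 measured genes fell. Xpot, the exporter of tRNA from the nucleus, passed in all 3 lines with -0.56, -0.88 and -0.90, and the tRNA methyltransferases Nsun2 (-0.34, -0.71 and -0.60) and Trmt1 (-0.29, -0.56 and -0.72) passed in dnChd4 and dnSnf2h. Of 4 cytosolic elongation factors 0, 2 and 1 fell. Eef1b2, at -0.20, -0.41 and -0.56, had the largest change of the list in dnChd4 and dnSnf2h. Eef2 changed less, by -0.09, -0.16 and -0.20, and these values do not mark it as one of those calls. On control induction as labelled 0 genes of these 4 lists passed, with medians of -0.07 (scaffolds), 0.03 (editing), -0.06 (maturation and export) and -0.03 (elongation). In the 15-array fit 2 scaffolds, 1 editing gene, 7 maturation and export genes and 2 elongation factors fell on control induction and 1 editing gene rose, with medians of -0.50, 0.16, -0.65 and -0.32.

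Mitochondrial translation genes mostly did not pass. Among 9 factors, Mrrf, the ribosome recycling factor, rose in dnBrg1 (0.42), Mtif3, an initiation factor, rose in dnChd4 (0.36), and Tufm, the elongation factor Tu, fell in dnSnf2h (-0.37). Of all genes, 8.01% were called higher in dnBrg1, 11.2% higher in dnChd4 and 8.34% lower in dnSnf2h. A single call among 9 genes is near those shares. In the route that makes mitochondrial glutaminyl-tRNA and formyl-methionyl-tRNA, Gatc fell in dnChd4 (-0.35), and the other 3 genes passed in none of the lines. On control induction 0 genes of both lists passed as labelled (medians 0.06 for the factors and -0.04 for the route), and in the 15-array fit 2 factors fell and 2 rose (median 0.02) and 0 genes of the route passed (median -0.21).

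The ATF4 and amino acid response list moved with the cytosolic synthetases. Of its 31 genes 13, 23 and 23 fell and 2, 1 and 1 rose in dnBrg1, dnChd4 and dnSnf2h, with medians of -0.26, -0.72 and -0.80. The shares of all genes were 6.22%, 6.82% and 8.34% lower and 8.01%, 11.2% and 9.2% higher. Atf4 itself changed by -0.42, -0.79 and -0.83 (limma adjusted p 0.0145, 0.000112 and 9.13e-05). The cystine carrier Slc7a11 fell in all 3 lines (-1.85, -2.58 and -2.75), as did the mitochondrial folate enzyme Aldh1l2 (-2.29, -1.91 and -2.33) and the glycine carrier Slc6a9 (-0.98, -1.46 and -2.02). Asns, the asparagine synthetase, changed by -0.22, -0.72 and -0.86 and passed in dnChd4 and dnSnf2h. Ppp1r15a, which makes a phosphatase subunit acting on eIF2alpha, rose by 0.46, 0.43 and 0.78, and Sesn2 rose in dnBrg1 by 0.44. Of the 4 kinases of eIF2alpha, Eif2ak1 (0.49, 0.53 and 0.59) and Eif2ak2 (0.46, 0.63 and 0.74) rose in all 3 lines. The list was drawn up with earlier results of these data known and is not independent evidence. In the 17-array fit 0 genes of any of these lists passed. In the control line 0 of the 31 passed as labelled (median -0.16), and 24 fell and 1 rose in the 15-array fit (median -1.09). Of the kinases 0 passed as labelled (median 0.20) and 2 rose in the 15-array fit (median 0.61).

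Proliferation genes moved in the same arrays. Of 11 measured genes 9, 11 and 11 fell in dnBrg1, dnChd4 and dnSnf2h (6.22%, 6.82% and 8.34% of all genes), with medians of -0.68, -0.74 and -0.74. Their mean level per array was 9.87 to 10.03 in the repressed dominant-negative arrays and 9.07 to 9.47 in the induced ones, and ran from 8.61 to 10.07 over the control arrays. On control induction 0 of the 11 passed as labelled (median -0.24) and all 11 fell in the 15-array fit (median -1.44), so the control count rested on the libraries labelled repressed 1 and induced 1. The part of proliferation in the synthetase changes was not tested.

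Some markers of other cell types moved in the same arrays too. Beside their counts, 6.22%, 6.82% and 8.34% of all genes were called lower in dnBrg1, dnChd4 and dnSnf2h, and 8.01%, 11.2% and 9.2% higher. Of 8 mesenchymal and fibroblast markers 6, 0 and 3 fell and 0, 1 and 0 rose in dnBrg1, dnChd4 and dnSnf2h, with medians of -0.70, -0.18 and -0.30. The mean level of that list was 9.28 to 9.32 repressed and 8.69 to 8.80 induced in dnBrg1, 9.22 to 9.39 and 9.25 to 9.28 in dnChd4, and 9.32 to 9.33 and 8.94 to 9.18 in dnSnf2h. Of 6 macrophage markers 1, 2 and 1 rose, by up to 1.34, 1.74 and 1.36 (Lyz2, at 4.54 to 7.59 over the 17 arrays), while Cd68 (5.54 to 6.86) fell in dnBrg1 (-0.48) and rose in dnChd4 (1.03). The defining blood cell genes Ptprc and Csf1r stayed at 4.21 to 4.65, in the dimmest 30% of genes. The mean macrophage level was 4.58 to 4.92 in the repressed and 4.95 to 5.04 in the induced dominant-negative arrays. Of 6 myoepithelial and basal markers, Krt14 fell in all 3 lines (-1.29, -1.15 and -1.29) and Acta2 rose in dnChd4 (2.56) and dnSnf2h (2.32). Of the epithelial (8 genes), lymphoid (2), endothelial (3) and adipocyte (3) lists 0 passed, but the mean endothelial level was 4.48 to 4.58 in the dnBrg1 arrays and 5.67 to 5.94 in all others. That gap came from Cdh5 alone, which ran from 3.86 to 8.33 over the 17 arrays. Pecam1 (4.32 to 4.80) and Kdr (4.52 to 5.16) varied little. On control induction 0 markers of these 7 lists passed as labelled, and in the 15-array fit 3 mesenchymal and 2 basal markers fell and 1 mesenchymal, 1 basal and 1 macrophage marker rose. Their part in the synthetase changes, and in the differences between lines, was not tested.

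**Figure D5:**
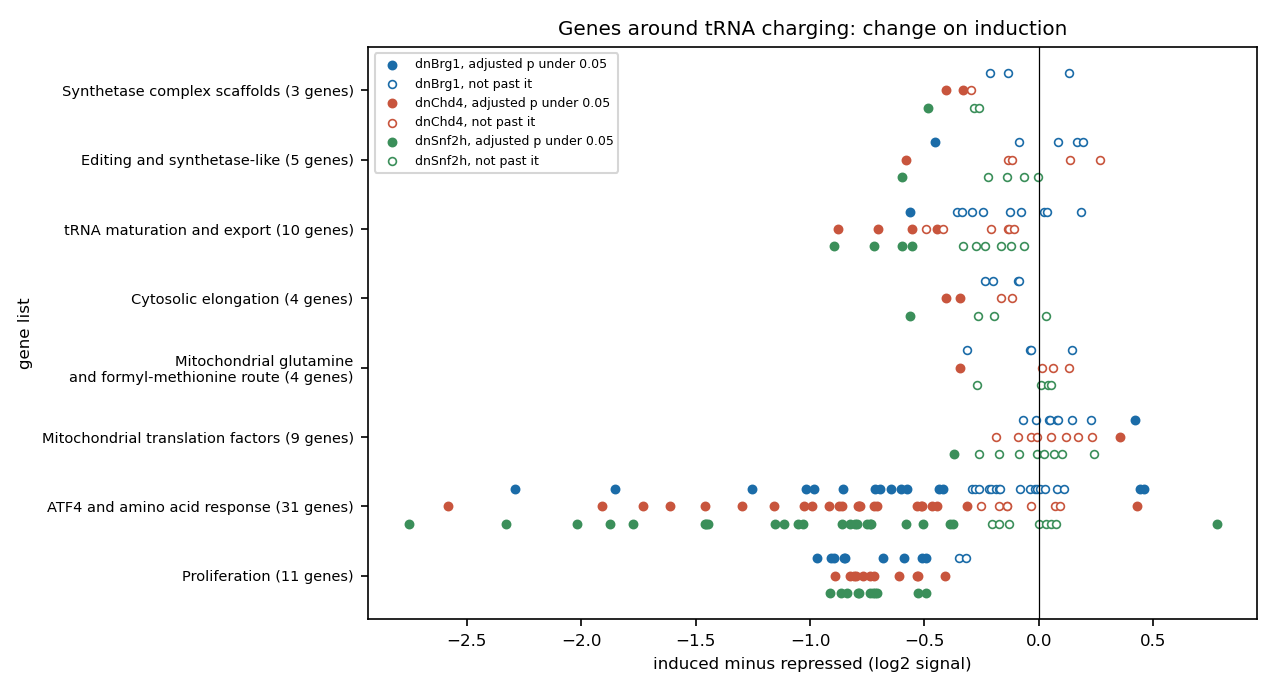
Change on induction (horizontal axis, induced minus repressed log2 signal, 12-array limma fit) of every measured gene of 8 lists around tRNA charging (vertical axis), with a row of points per dominant-negative line, filled where the adjusted p was under 0.05. Proliferation genes all lie below 0, the ATF4 and amino acid response list reaches -2.75, and the mitochondrial translation factors spread around 0.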

How the data were processed

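RNA from 17 samples of 8 groups was labelled as biotin-cDNA from about 100 ng of total RNA and hybridised to Affymetrix whole-transcript mouse arrays (Mouse Gene 1.0 ST), per the labels' protocols. The authors deposited log2 values per probe set (judged from their range, 2.02 to 14.86, with array medians of 5.48 to 5.63), made with Affymetrix Expression Console per the submitters' processing notes. Software version, normalization and build: not given in the sources used here. The number of arrays limits the precision.

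The deposited values were used without further scaling. Of 35557 probe sets, 21789 have 1 gene symbol in the platform annotation, 1621 several and 12147 none. The probe set with the highest mean and 1 symbol stood for each of 19938 genes. Models with 1 mean per group were fitted with limma 3.58.1 in R 4.3.3 (lmFit, eBayes, two-sided, Benjamini-Hochberg over all genes, threshold 0.05) and tested on simulated data. The members, lists, groupings and the choice of 12 arrays were made with earlier results of these data known. Replicate numbers were not used as pairs in the main fits. Over all genes, deviations of same-numbered arrays correlated at -0.76 and -0.65 in the control line. In dnBrg1, dnChd4 and dnSnf2h they correlated at 0.0160, 0.135 and 0.313. Over the cytosolic genes, median differences of replicate 1 minus replicate 2 kept their sign between states. They were 0.11 repressed and 0.05 induced in dnBrg1, -0.12 and -0.05 in dnChd4, and -0.12 and -0.11 in dnSnf2h. The replicate block shares 1 effect per replicate number across lines, so it does not model pairing within a line. A block by line and replicate number was not run, and the p-values leave any such pairing out.

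Genes named with values were, per induction, up to 8 cytosolic and 4 mitochondrial members with the largest changes past the threshold, with Eprs, Gars, Kars, Qars, Farsa, Farsb and Wars always named, and for lists and other comparisons those with the smallest p. All other named members, list genes and the amino acid pairs were chosen after their values were seen. Values per array are given for the 8 cytosolic and 5 mitochondrial members that passed in the most lines. Alternatives were other sets of arrays, a replicate block, other eBayes settings, array weights, quantile normalization, median centring, a filter on dim genes, other probe set rules and leaving out each array.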

Additional observations from a re-analysis of the deposited data

How the results depend on the processing

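Of the alternatives to the counts, medians and class means, 541 gave the same result, 26 were weaker, 9 stronger and 14 moved. Of those to single members, 622 gave the same call, 81 were weaker, 11 stronger and 6 reversed. The choice of arrays mattered most. With 17 arrays the members called lower numbered 0 in both classes for dnBrg1, dnChd4 and dnSnf2h, and between repressed lines 3 cytosolic and 0 mitochondrial (dnBrg1 minus dnChd4) and 3 cytosolic (dnBrg1 minus dnSnf2h). With 15 arrays the control line held 12 cytosolic (median -0.60) and 5 mitochondrial members lower, and dnBrg1 minus control 6 cytosolic and 2 mitochondrial members past the threshold. Mitochondrial members lower for dnBrg1 numbered 0 with median centring and with all probe sets, for dnChd4 5 with array weights, and for dnSnf2h 2 with the lines compared only and 7 with quantile normalization. Medians moved to -0.044 (dnBrg1, mitochondrial) and -0.11 (dnChd4, mitochondrial) with median centring and to -0.44 (dnChd4, cytosolic) with quantile normalization, which also gave 1 mitochondrial member past the threshold for dnBrg1 minus dnSnf2h and cytosolic minus mitochondrial means of -0.051 (repressed dnBrg1) and 0.19 (repressed dnSnf2h). For repressed dnBrg1 minus dnChd4, all probe sets left 8 cytosolic members lower, and the replicate block, eBayes with trend and robust, and all probe sets left 1 mitochondrial member. With the replicate block, cytosolic and mitochondrial members lower numbered 6 and 2 (dnBrg1), 13 and 4 (dnChd4) and 12 and 4 (dnSnf2h). The causes were not tested.

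Leaving out 1 array at a time, cytosolic members lower ranged over 4 to 5 (dnBrg1), 10 to 12 (dnChd4) and 10 to 14 (dnSnf2h), with medians of -0.33 to -0.16, -0.54 to -0.47 and -0.64 to -0.49. Mitochondrial members lower ranged over 0 to 1 (0 without dnBrg1 induced 1 or induced 2), 3 to 4 and 3 to 8 (8 without dnSnf2h repressed 1), with medians of -0.18 to -0.095, -0.19 to -0.15 and -0.35 to -0.14. The cytosolic median of the control line ran from -0.37 to 0.35. Repressed dnBrg1 minus dnChd4 held 4 to 10 cytosolic and 1 mitochondrial members lower, and dnBrg1 minus dnSnf2h 6 to 9 and 2 to 3. The dnBrg1 minus dnSnf2h inductions differed in 0 to 1 mitochondrial members, 1 without dnSnf2h repressed 1. Signs that turned were those of Farsb in dnBrg1 (0.014 with median centring, -0.14 to 0.029 leaving out arrays, above 0 without dnBrg1 repressed 1), Wars in dnBrg1 (-0.015 to 0.092, below 0 without dnBrg1 repressed 2 or induced 1) and Farsa in dnChd4 (-0.0014 with quantile normalization, -0.093 to 0.165 leaving out arrays, below 0 without dnChd4 repressed 1), none past the threshold.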
